A study of Mus musculus with 123 samples.

Results

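Axotomized sensory neurons of the dorsal root ganglion (DRG) at day 3 after sciatic nerve transection (SNT) were compared between cells with and without *P2rx3* mRNA. The members were chosen on 2 genes. A cell counted as axotomized where *Atf3*, a transcription factor switched on by axon injury, reached 500 counts per 1e6 counts of the cell (CPM), and as P2rx3-positive where *P2rx3*, the ATP receptor subunit P2X3, was above 10 CPM. The rule took 30 of the 41 SNT-side cells kept at day 3, out of 123 samples in the series, and gave 17 P2rx3-positive and 13 P2rx3-negative cells.

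The series holds single DRG neurons picked by hand and sequenced with Smart-seq2, from the side of a transected sciatic nerve (SNT) and from the opposite, control side. Day-3 mice were 2 months old and were F1 females of a CAST/Eij male and a C57BL/6 female, with the right sciatic nerve cut at mid-thigh level. The labels name L5 ganglia of both sides for these mice, where the methods of the study name L3 to L5. Day-7 cells, used below as a second set, came from C57BL/6 mice of both sexes, also 2 months old. The labels name no animal for a cell, similar numbers of small, medium and large somata were picked, and the cells of one side and day are therefore treated as 1 sample. No p-value is given for that reason, the SD describes the spread between cells, and the counting intervals given for 2 genes cover counting error only.

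P2rx3 marks many unmyelinated nociceptors, the small neurons that report painful heat, touch and itch and that are divided into peptidergic and nonpeptidergic kinds. Large myelinated neurons lack P2rx3, carry neurofilament heavy chain and the receptors TrkB or TrkC, and report touch and limb position. Cutting a peripheral nerve switches on injury transcription factors and growth genes in both kinds of cell, and lowers many of the channels and receptors that define them.

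*Atf3* was 1349, 2141 and 3589.5 CPM at its lowest, median and highest in P2rx3-positive cells and 951, 1495 and 4436 CPM in P2rx3-negative cells. The lowest member held 951 CPM and the highest of the 11 SNT-side cells under the cut held 23.04 CPM, so no cell lay near the cut. *P2rx3* was 29.7, 1931 and 3087 CPM at its lowest, median and highest in P2rx3-positive cells and 0, 4.05 and 8.35 CPM in P2rx3-negative cells. The P2rx3-positive cells nearest the cut were cell 11 with 29.7 CPM, cell 43 with 52.5 CPM and cell 27 with 154 CPM, and the other 14 began at 941 CPM. The highest P2rx3-negative cell, cell 19, held 8.35 CPM. These values chose the cells and are given as a description. Total counts were 994520 to 1849130 in P2rx3-positive cells (median 1333201) and 634196 to 1805583 in P2rx3-negative cells (median 1340391), and genes above 10 CPM numbered 8353 ± 237 and 8415 ± 199 (SD, n = 17 and 13).

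**Figure D1:**
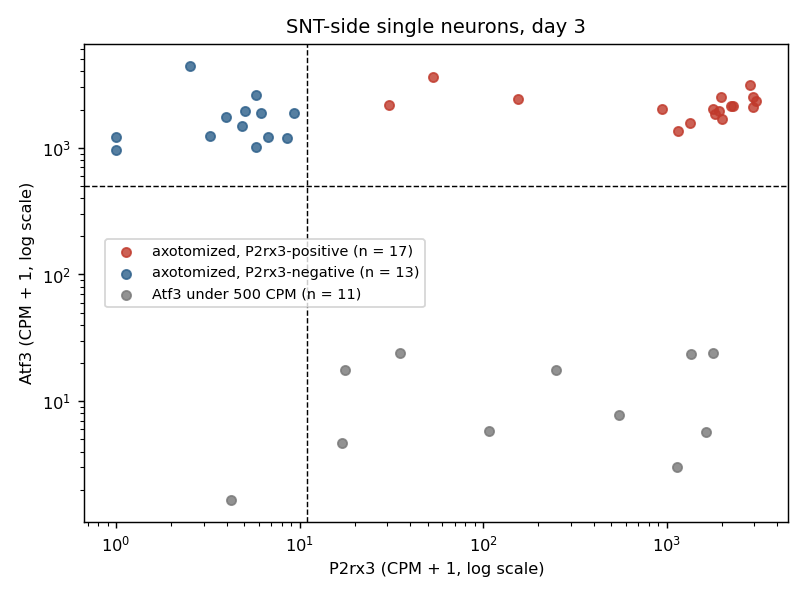
Each point is 1 of the 41 SNT-side cells kept at day 3, with *P2rx3* on the x axis and *Atf3* on the y axis, both as CPM + 1 on log scales, and dashed lines at the cuts. The 30 axotomized cells lie far above the Atf3 cut, and 3 of the 17 P2rx3-positive cells (29.7, 52.5 and 154 CPM) lie between the P2rx3 cut and the main body of positive cells.

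Higher in the P2rx3-positive cells were some genes of nociceptors, such as the sodium channel gene *Scn10a*. Genes that the transcription factor ATF4 is known to switch on, such as *Asns*, *Psat1* and *Mthfd2*, were also higher in them. Genes of large myelinated neurons and the GABA receptor gene *Gabrg1* were lower in them. Of 41 regeneration-associated genes, 30 were less than 2-fold apart. The others were 17.1% at least 2-fold higher and 9.76% lower, beside 6.18% and 8.72% of all genes. Means are given ± SD over the 17 and 13 cells, P2rx3-positive first. Differences are given as the log2 ratio of mean CPM + 1, P2rx3-positive over P2rx3-negative, and a gene was compared where its mean reached 10 CPM in at least 1 group. Of 9511 genes compared, the 2 rule genes left out, 588 (6.18%) were at least 2-fold higher and 829 (8.72%) at least 2-fold lower, with a median log2 ratio of 0.064 over all genes. Every P2rx3-positive cell lay above every P2rx3-negative cell for 8 genes (0.0841%) and below for 3 genes (0.0315%). All of these ratios come from the split that the rule made, and nothing in the lists below is tested. CPM holds no gene length, so values are compared between cells and not between genes.

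The 8 genes without overlap on the higher side were *Scn10a*, *Prkcd*, *Adcy5*, *Mthfd2*, *Adam19*, *Psat1*, *Prkx* and *Asns*. *Scn10a*, the tetrodotoxin-resistant sodium channel of nociceptors, was 28.1, 84.8 and 297 CPM at its lowest, median and highest in P2rx3-positive cells and 0, 1.92 and 8.58 CPM in P2rx3-negative cells. It passed 10 CPM in 17 of 17 P2rx3-positive cells and in 0 of 13 P2rx3-negative cells. *Prkcd*, protein kinase C delta, was 165, 259 and 502 CPM at its lowest, median and highest in P2rx3-positive cells and 0.712, 6.75 and 55.1 CPM in P2rx3-negative cells, a log2 ratio of 4.67. *Adcy5*, an adenylyl cyclase, averaged 29.2 ± 19.3 CPM against 1.28 ± 2.02 CPM (log2 ratio 3.73), and its lowest P2rx3-positive cell held 7.56 CPM and its highest P2rx3-negative cell 5.69 CPM. The metalloprotease gene *Adam19* averaged 251 ± 69.2 CPM against 79.5 ± 32.3 CPM (log2 ratio 1.65) and the kinase gene *Prkx* 207 ± 54.2 CPM against 90.3 ± 11.6 CPM (log2 ratio 1.19). The gaps between the groups were narrow for *Prkx*, from 114 to 119 CPM, and wide for *Prkcd*, from 55.1 to 165 CPM.

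The 3 genes without overlap on the lower side were *Chchd10*, *Pacs1* and *Slc25a5*. *Chchd10*, a mitochondrial intermembrane-space protein, was 2.02, 15.4 and 42.01 CPM at its lowest, median and highest in P2rx3-positive cells and 48.4, 129 and 531 CPM in P2rx3-negative cells (log2 ratio -3.18). *Pacs1*, a sorting adaptor of the trans-Golgi network, averaged 6.57 ± 7.803 CPM against 60.6 ± 19.9 CPM (log2 ratio -3.03). *Slc25a5*, the mitochondrial ADP/ATP carrier, averaged 244 ± 34.9 CPM against 513 ± 169.9 CPM (log2 ratio -1.07) and is named here after its values were seen, since the naming rule stopped at 10 genes.

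The 12 genes with the highest ratios among those above 10 CPM in at least 50% of the P2rx3-positive cells were *Anxa1*, *Aqp1*, *Cartpt*, *Dnase1l3*, *Tgfbi*, *Tmem45b*, *Scn10a*, *Cav1*, *Osmr*, *Tmem233*, *Trpv1* and *Prkcd*, from 6.87 down to 4.67 on the log2 scale. *Anxa1*, a phospholipid-binding annexin, was 0, 122 and 4867 CPM at its lowest, median and highest in P2rx3-positive cells and 0, 2.95 and 44.98 CPM in P2rx3-negative cells, and cells 25, 2 and 22, with 4867, 3175 and 3025 CPM, held most of its sum. *Tgfbi*, a secreted matrix protein, was 0, 268 and 911 CPM at its lowest, median and highest in P2rx3-positive cells and 0, 0 and 21.3 CPM in P2rx3-negative cells. It passed 10 CPM in 14 of 17 and 1 of 13 cells, P2rx3-positive first. *Osmr*, the oncostatin M receptor subunit, passed 10 CPM in 14 of 17 and 1 of 13 cells and averaged 123 ± 161 CPM against 3.51 ± 5.63 CPM. *Trpv1*, the heat and capsaicin channel, passed 10 CPM in 11 of 17 and 1 of 13 cells and reached 855 CPM in cell 21. *Cartpt*, a neuropeptide precursor, reached 1452 CPM in cell 10 and was at or under 137 CPM in the other P2rx3-positive cells. The water channel gene *Aqp1* rested on 2 counts over all 13 P2rx3-negative cells, so its fold of summed counts, 1048, has a 95% counting interval of 290.0 to 8662. The endonuclease gene *Dnase1l3* rested on 3 such counts, with a fold of 664 and an interval of 227 to 3219.7. The membrane protein gene *Tmem45b* averaged 307 ± 258 CPM against 8.87 ± 8.41 CPM, the caveolin gene *Cav1* 37.7 ± 54.7 CPM against 0.407 ± 0.802 CPM and *Tmem233* 36.2 ± 38.2 CPM against 0.382 ± 0.960 CPM.

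The 12 lowest ratios, by the same rule with at least 50% of the P2rx3-negative cells above 10 CPM, belonged to *Gabrg1*, *Vsnl1*, *Pvalb*, *Spp1*, *Pcp4*, *Hs3st2*, *Asic1*, *Clec2l*, *Fam19a2*, *Scn1a*, *Faim2* and *Tmem163*, from -7.48 to -4.13. *Gabrg1*, a gamma subunit of the GABA-A receptor, was 0, 0 and 9.42 CPM at its lowest, median and highest in P2rx3-positive cells and 0, 139 and 1287 CPM in P2rx3-negative cells. It was above 10 CPM in 0 of 17 and 12 of 13 cells, and the P2rx3-negative cell without it was cell 12. *Pvalb*, the calcium buffer parvalbumin of proprioceptors, averaged 1.85 ± 2.85 CPM against 116 ± 165 CPM and passed 10 CPM in 1 of 17 and 8 of 13 cells. *Spp1*, osteopontin, averaged 18.8 ± 34.1 CPM against 540.1 ± 1633 CPM, but 5962 CPM in cell 3 set that mean, and the P2rx3-negative median was 35.3 CPM. *Pcp4*, a calmodulin regulator, was 0, 3.259 and 447 CPM at its lowest, median and highest in P2rx3-positive cells and 0.641, 602 and 3014 CPM in P2rx3-negative cells, and cell 21, with 447 CPM, stood above the other 16 P2rx3-positive cells, which reached at most 10.1 CPM. *Faim2*, an inhibitor of Fas-driven cell death, averaged 7.43 ± 15.8 CPM against 159 ± 107 CPM and *Fam19a2*, a secreted neurokine, 3.277 ± 8.40 CPM against 84.9 ± 49.7 CPM. Both passed 10 CPM in 13 of 13 P2rx3-negative cells. *Vsnl1*, a neuronal calcium sensor, averaged 1.05 ± 1.62 CPM against 137 ± 143 CPM, the heparan sulfate sulfotransferase gene *Hs3st2* 0.654 ± 1.66 CPM against 37.4 ± 39.1 CPM, *Clec2l* 2.37 ± 4.33 CPM against 69.3 ± 71.5 CPM and *Tmem163*, whose exons overlap those of *Mgat5* on the other strand, 0.248 ± 0.701 CPM against 20.9 ± 18.7 CPM.

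The label of each group was checked against marker lists. Of 23 compared markers of large myelinated (LM) neurons, 22 were at least 2-fold lower in P2rx3-positive cells, 0 were higher and the median log2 ratio was -2.27, beside 8.72% lower among all genes. Neurofilament heavy chain, *Nefh*, was 9.61, 86.4 and 364 CPM at its lowest, median and highest in P2rx3-positive cells and 132, 492 and 1605 CPM in P2rx3-negative cells (log2 ratio -2.53). *Nefl* and *Nefm*, the light and medium chains, had log2 ratios of -1.52 and -1.69. Their exons overlap on opposite strands and Smart-seq2 keeps no strand, so reads from the shared stretch cannot be told apart. The same holds for *Atf5* and *Nup62*, *Ina* and *Nt5c2*, *Tuba4a* and *Stk16*, *Avil* and *Tsfm*, *Shox2* and *Rsrc1*, and *P2rx3* and *Ssrp1*. *Ntrk3*, the neurotrophin-3 receptor TrkC, was 0, 0 and 22.2 CPM at its lowest, median and highest in P2rx3-positive cells and 0, 77.1 and 144 CPM in P2rx3-negative cells, and passed 10 CPM in 3 of 17 and 11 of 13 cells. *Ntrk2*, the BDNF receptor TrkB, averaged 34.9 ± 36.9 CPM against 169 ± 105 CPM (log2 ratio -2.24). The T-type calcium channel gene *Cacna1h*, with a log2 ratio of -0.69, was the marker that did not reach 2-fold.

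Of 7 compared markers of peptidergic (PEP) nociceptors, 5 were at least 2-fold higher and 0 lower (median 1.62, beside 6.18% higher among all genes). The other 2 had ratios below 0. Over 18 alternative settings the PEP median ran from 0.40 to 5.25. *Kit*, among the 5 higher, had a log2 ratio of -0.12 with medians over cells. *Calca*, the precursor of calcitonin gene-related peptide, was 65.8, 163 and 9267 CPM at its lowest, median and highest in P2rx3-positive cells and 0, 3.04 and 218 CPM in P2rx3-negative cells (log2 ratio 4.49). Cells 11 and 27 held 9267 and 2629 CPM of *Calca*, and both lay low in *P2rx3*. With the P2rx3 cut at 50 CPM, which moved only cell 11 to the other group, the log2 ratio of *Calca* was -0.79. *Gfra3*, the artemin co-receptor, averaged 835 ± 837 CPM against 271 ± 572 CPM, and P2rx3-negative cells 12, 5 and 39 held 1975, 751 and 642 CPM of it while the other 10 reached at most 54.7 CPM.

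Markers of nonpeptidergic (NP) nociceptors were less uniform. Of 11 compared, 4 were at least 2-fold higher and 2 lower (median 0.76), beside 6.18% and 8.72% of all genes. Summed over the 21 listed, they were 194 to 2082 CPM (median 777) in P2rx3-positive cells. In P2rx3-negative cells the sums were 80.6 to 2576 CPM (median 1045). *Mrgprd*, a receptor that defines many of these cells, passed 10 CPM in 5 of 17 and 0 of 13 cells, and *Scn11a*, a persistent sodium channel of nociceptors, in 10 of 17 and 0 of 13 cells. *Nppb*, an itch peptide precursor, was above 10 CPM in cell 10 alone, with 343 CPM. *Plxnc1*, *Cd55* and *Grik1* had log2 ratios of 0.12, 0.33 and 0.32. *Gfra1*, a GDNF co-receptor, was lower, at 277 ± 299 CPM against 759.7 ± 497 CPM (log2 ratio -1.45), and so was the serotonin receptor gene *Htr1f* (-2.67). In the 3 compared markers of C-fibre touch neurons the log2 ratios were 2.349 for *Fam19a4*, -0.75 for the touch channel gene *Piezo2* and -2.55 for *Zfp521*.

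Of 16 compared neuron-identity transcription factors, 4 were at least 2-fold higher and 7 lower (median -0.39), beside 6.18% and 8.72% of all genes. *Runx1*, which directs nonpeptidergic fate, was 2.55, 52.6 and 173 CPM at its lowest, median and highest in P2rx3-positive cells and 0.9997, 5.74 and 60.7 CPM in P2rx3-negative cells, and *Prdm12*, needed for nociceptors to form, averaged 20.9 ± 21.1 CPM against 7.51 ± 21.4 CPM (log2 ratio 1.36). *Shox2*, used by touch neurons, averaged 3.49 ± 5.07 CPM against 54.3 ± 53.5 CPM (log2 ratio -3.62), and the estrogen-related receptor gene *Esrrg* 1.02 ± 2.17 CPM against 11.1 ± 10.6 CPM (-2.58). The LIM cofactor gene *Ldb2* was higher, at 15.8 ± 15.5 CPM against 3.232 ± 6.99 CPM (1.99). *Pou4f1*, the pan-sensory factor Brn3a, was level at 86.7 ± 21.8 CPM against 89.6 ± 43.04 CPM.

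**Figure D2:**
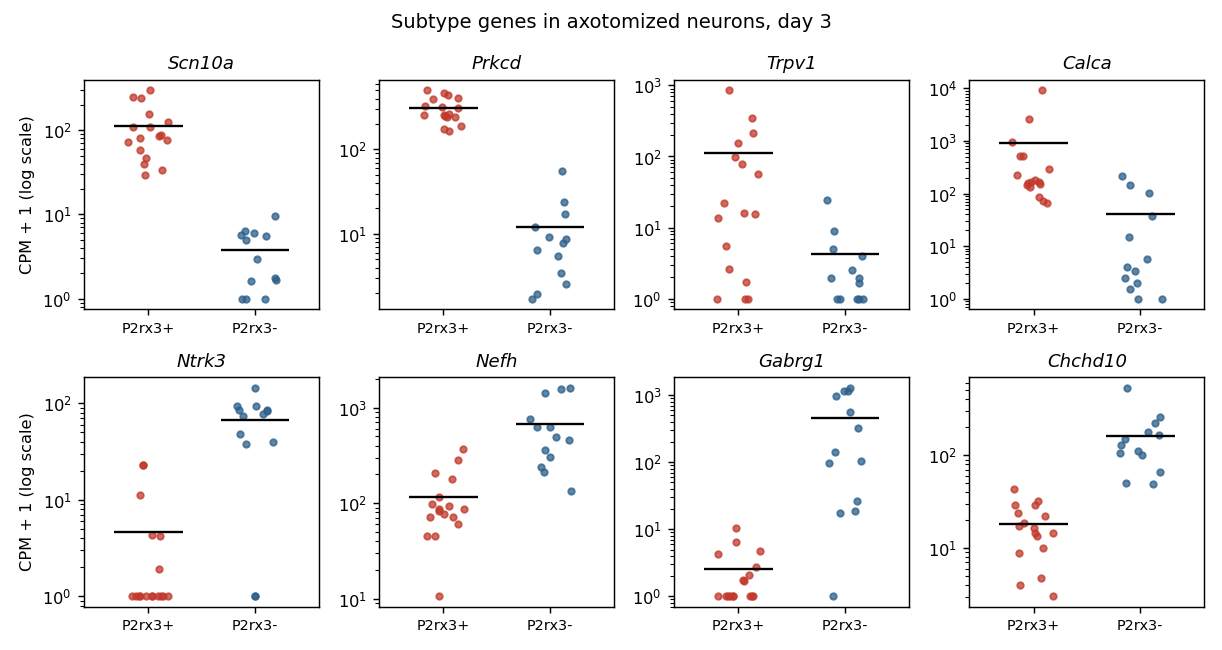
Each panel plots 1 gene in the 17 P2rx3-positive (red) and 13 P2rx3-negative (blue) axotomized cells as CPM + 1 on a log axis, with points for cells and a line at the mean. *Scn10a*, *Prkcd* and *Chchd10* do not overlap, *Trpv1* and *Calca* are higher on average but overlap, and *Ntrk3*, *Nefh* and *Gabrg1* are higher in most P2rx3-negative cells.

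Neither group was uniform. P2rx3-positive cells 11, 27 and 35 held 932, 959 and 1030.4 CPM of the synaptic gene *Snap25* and 369, 381 and 430.2 CPM of the sodium channel subunit gene *Scn4b*. The other 14 reached at most 505 and 15.8 CPM. These 3 cells also had the highest *Calca* of the group, *Runx1* under 10 CPM, *Tgfbi* at or under 0.849 CPM and the intermediate filament gene *Ina* at 0. They share *Scn10a* (154, 109 and 74.7 CPM) with the rest. P2rx3-negative cells 5 and 12 had *Ntrk3* at 0 and *S100b*, high in large neurons and in glia, at 15.7 and 18.98 CPM, where the other 11 began at 334 CPM. Their other markers were mixed. Both cells passed 10 CPM for *Nefh* and *Ntrk2*, and also for *Calca*, *Gfra3* and *Runx1*, while *Scn10a* and *Pvalb* passed it in 0 of 2. Cells 5 and 12 had 14 and 13 LM markers above 10 CPM, against 17 to 23 in the other P2rx3-negative cells. Cells 5 and 12 were chosen for description after their values were seen. Without them, 698 genes were at least 2-fold higher and 897 lower, and the PEP median was 3.51.

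Many ion channel genes differed between the groups, with 24 of 29 potassium channel genes and 8 of 11 sodium channel genes at least 2-fold apart, beside 14.9% of all genes. Of the sodium channels, *Scn10a* (4.89) and *Scn11a* (3.273) were higher and 6 were lower. *Scn1a*, a channel of fast-spiking neurons, was 0, 0 and 17.1 CPM at its lowest, median and highest in P2rx3-positive cells and 9.03, 65.9 and 113 CPM in P2rx3-negative cells (log2 ratio -4.27). *Scn8a*, the channel of nodes of Ranvier, averaged 27.9 ± 21.9 CPM against 86.5 ± 40.6 CPM (-1.60), and *Scn7a*, a sodium-sensing relative, 110.3 ± 98.0 CPM against 355 ± 181 CPM (-1.68). *Scn9a*, the channel whose loss abolishes human pain, was level, at 236 ± 87.9 CPM against 226 ± 81.5 CPM (0.062).

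Potassium channel genes divided into 10 higher and 14 lower, beside 6.18% and 8.72% of all genes. The highest were *Kcnh6*, an erg-type channel, with 43.2 ± 30.7 CPM against 4.01 ± 7.249 CPM (3.142), *Kcnt1*, a sodium-activated channel, with 32.3 ± 23.1 CPM against 4.40 ± 4.38 CPM (2.62), and *Kcnc2*, a fast delayed rectifier, with 35.7 ± 34.9 CPM against 5.11 ± 11.5 CPM (2.59). *Kcnt1* was above 10 CPM in 17 of 17 and 2 of 13 cells. On the lower side were the tandem-pore channel gene *Kcnk1* (-3.63), the G-protein-gated *Kcnj3* (-3.38) and the erg channel *Kcnh2* (-2.76). *Kcnk1* was 0, 4.50 and 27.4 CPM at its lowest, median and highest in P2rx3-positive cells and 19.7, 79.1 and 124 CPM in P2rx3-negative cells, with 1 of 17 against 13 of 13 cells above 10 CPM. *Kcna1* and *Kcna2*, the channels beside the node, had log2 ratios of -1.41 and -1.99.

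Of 10 calcium channel genes, 1 was higher and 2 were lower, beside 6.18% and 8.72% of all genes. The L-type channel gene *Cacna1c* averaged 41.4 ± 22.8 CPM against 8.40 ± 16.2 CPM (2.17), the subunit gene *Cacng5* 3.62 ± 12.5 CPM against 58.0 ± 62.0 CPM (-3.68) and *Cacna2d3* 8.38 ± 10.1 CPM against 37.1 ± 24.9 CPM (-2.02). *Cacna2d1*, the gabapentin-binding subunit, averaged 1745 ± 588 CPM against 1050.1 ± 804 CPM (0.73). In the list of HCN, TRP, ASIC, Piezo and P2X channels, 3 of 17 were higher and 5 lower, beside 6.18% and 8.72% of all genes. The higher ones were *Trpv1*, the anoctamin *Ano3* with 1.79 and the pacemaker channel *Hcn3* with 1.43. The proton-gated *Asic1* averaged 2.58 ± 6.94 CPM against 81.5 ± 70.6 CPM (-4.52), the chloride channel gene *Ano1* 3.704 ± 7.193 CPM against 38.6 ± 51.0 CPM (-3.07) and *P2rx6* 1.90 ± 3.93 CPM against 20.5 ± 13.7 CPM (-2.89).

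**Figure D3:**
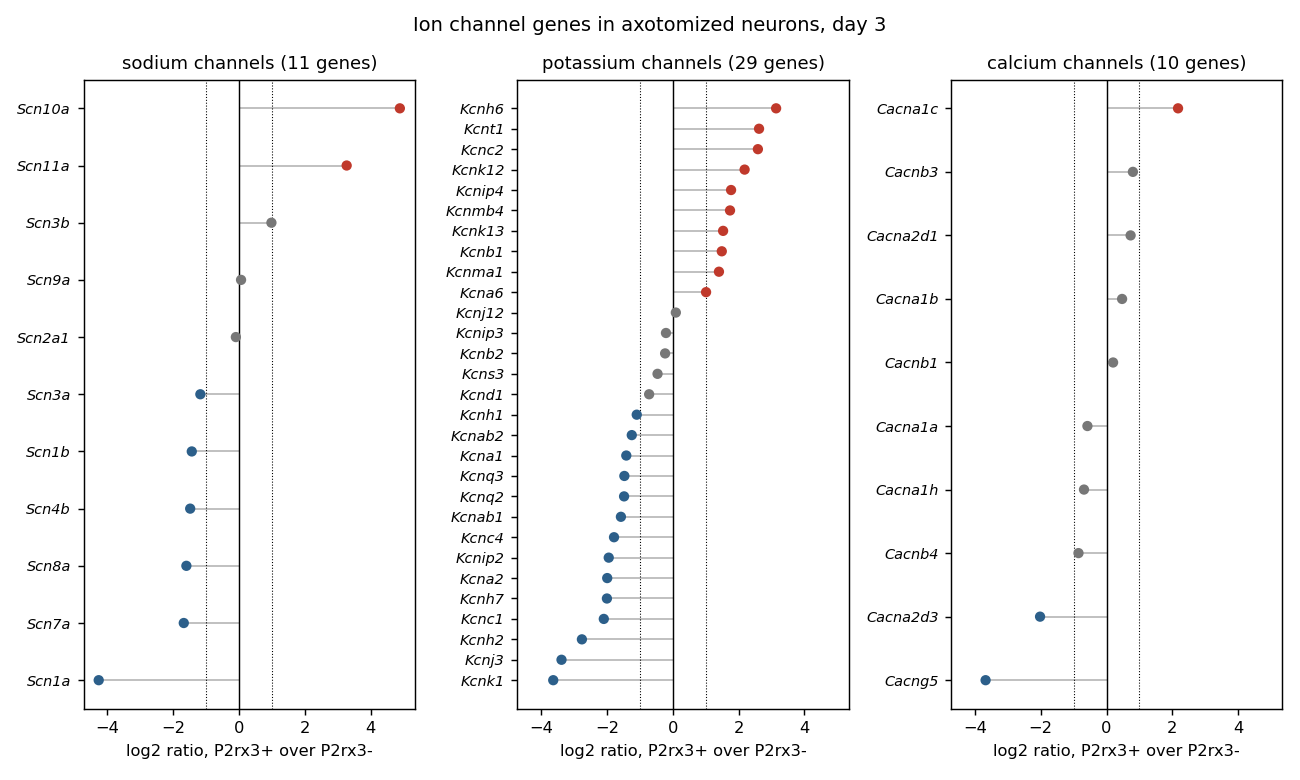
Each point is the log2 ratio of mean CPM + 1 of 1 channel gene, P2rx3-positive over P2rx3-negative cells, with dotted lines at 2-fold and colour for genes past it (red higher, blue lower). Sodium channels run from -4.27 (*Scn1a*) to 4.89 (*Scn10a*), and 7 of 10 calcium channels lie inside 2-fold.

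Among 20 receptors for GABA, glutamate, acetylcholine and serotonin, 3 were at least 2-fold higher and 9 lower, beside 6.18% and 8.72% of all genes. The nicotinic subunit gene *Chrna3* averaged 36.4 ± 35.6 CPM against 0.635 ± 1.18 CPM and was above 10 CPM in 12 of 17 and 0 of 13 cells. *Gabra5*, a GABA-A receptor subunit gene, averaged 2.17 ± 3.205 CPM against 40.7 ± 32.4 CPM (-3.72) and the AMPA receptor gene *Gria4* 21.1 ± 13.4 CPM against 72.2 ± 25.3 CPM (-1.73). *Gria1* (3.06) passed 10 CPM in 5 of 17 and 0 of 13 cells. The ratio of *Htr3a* (3.59) rested on cell 11, with 352 CPM, and without the 3 P2rx3-positive cells under 500 CPM of *P2rx3* it was -0.37. Of 22 receptors and signalling genes for neurotrophins, GDNF family ligands and gp130 cytokines, 3 were higher and 4 lower, beside 6.18% and 8.72% of all genes. *Osmr* and *Gfra3* were among the higher ones, and the lower ones were *Ntrk3*, *Ntrk2*, *Gfra1* and *Cntfr*. *Il6st*, gp130 itself, averaged 394 ± 139.7 CPM against 197 ± 66.4 CPM, and *Ret*, the shared GDNF receptor kinase, 808 ± 231 CPM against 532 ± 324 CPM (log2 ratios 0.996 and 0.60).

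Among 17 neuropeptides and secreted factors, 5 were at least 2-fold higher and 4 lower, beside 6.18% and 8.72% of all genes. *Penk*, the enkephalin precursor, averaged 161 ± 514 CPM against 2.02 ± 6.93 CPM, but cell 13 held 2106 CPM and the median was 3.395 CPM. *Calca* and *Nppb* are given above. *Igf1*, insulin-like growth factor, averaged 1.10 ± 1.96 CPM against 22.9 ± 43.6 CPM (-3.51), and *Fst*, the activin antagonist follistatin, 22.7 ± 43.8 CPM against 122 ± 85.8 CPM (-2.37). The injury peptides galanin and neuropeptide Y were present in both groups and varied widely. *Gal* was 1.49, 9550.4 and 18677 CPM at its lowest, median and highest in P2rx3-positive cells and 2.57, 2512 and 18957 CPM in P2rx3-negative cells (log2 ratio 0.67). *Npy* averaged 217 ± 274 CPM against 632 ± 988 CPM (-1.54), with medians of 189.6 and 41.3 CPM.

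Regeneration-associated genes, the genes that DRG neurons switch on while they regrow an axon, differed in both directions. Of 41 compared, 7 (17.1%) were at least 2-fold higher, 4 (9.76%) lower and 30 between, beside 6.18% higher and 8.72% lower among all genes, with a median log2 ratio of 0.30. *Jun*, a core injury factor, was 143, 355 and 817 CPM at its lowest, median and highest in P2rx3-positive cells and 228, 411 and 683 CPM in P2rx3-negative cells (log2 ratio 0.0044). *Sprr1a*, a cornified-envelope protein induced by axotomy, was 11.9, 4397 and 13019 CPM at its lowest, median and highest in P2rx3-positive cells and 1473, 2867 and 10284 CPM in P2rx3-negative cells (0.37), and cell 13 with 11.9 CPM and cell 43 with 96.2 CPM stood far below the rest. The growth-cone genes *Gap43*, *Stmn2* and *Tubb3* had log2 ratios of 0.82, -0.36 and -0.025, and the small heat-shock gene *Hspb1* one of 0.11.

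The 7 higher genes were *Anxa1*, *Ecel1*, *Myo10*, *Sox11*, *Itga7*, *Stmn4* and *Skil*. *Ecel1*, a neuronal endopeptidase induced by nerve injury, was 61.8, 469 and 979 CPM at its lowest, median and highest in P2rx3-positive cells and 0, 1.35 and 217 CPM in P2rx3-negative cells (log2 ratio 4.19), and 14 of 17 P2rx3-positive cells exceeded every P2rx3-negative cell. *Sox11*, a transcription factor of axon growth, averaged 662 ± 215 CPM against 270.0 ± 159 CPM (1.29), and *Itga7*, a laminin receptor subunit, 1190.4 ± 313 CPM against 493 ± 198 CPM (1.27). *Myo10*, the filopodial myosin, averaged 219 ± 107 CPM against 87.9 ± 60.0 CPM (1.31). The 4 lower genes were *Cap2*, *Ankrd1*, *Fst* and *Csrp1*. *Cap2*, an actin-binding cyclase-associated protein, passed 10 CPM in 0 of 17 and 8 of 13 cells, and *Ankrd1*, a muscle ankyrin protein, in 1 of 17 and 5 of 13 cells.

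**Figure D4:**
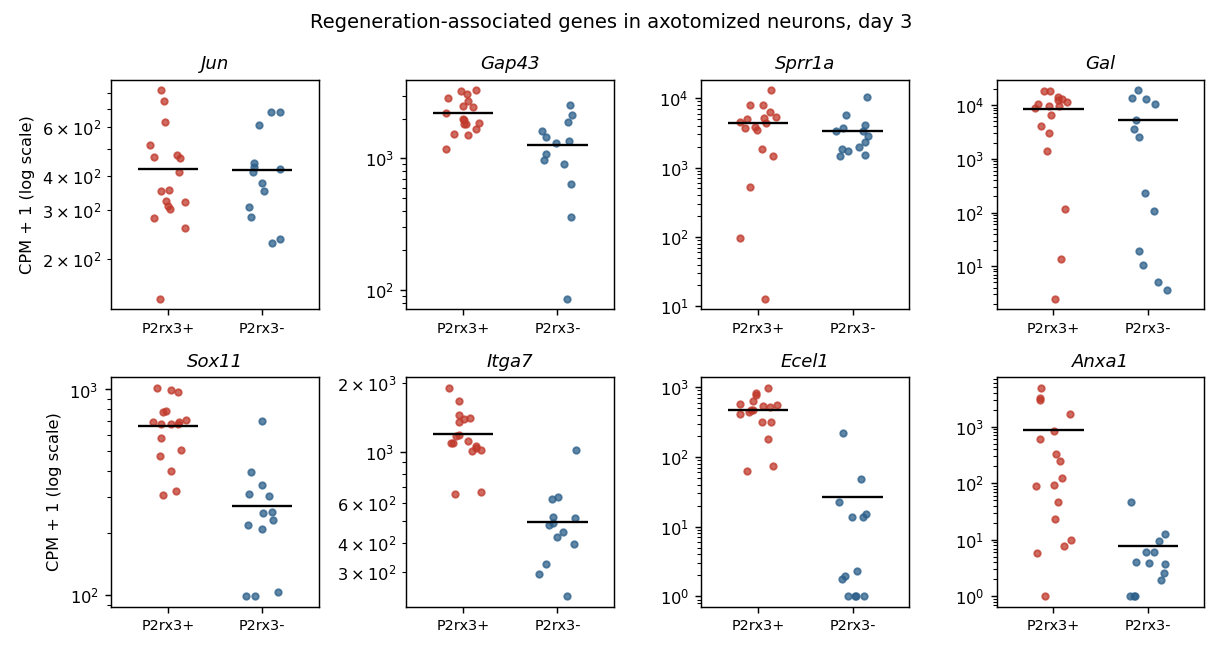
Each panel plots 1 regeneration-associated gene in P2rx3-positive (red, n = 17) and P2rx3-negative (blue, n = 13) axotomized cells as CPM + 1 on a log axis, with a line at the mean. *Jun*, *Gap43* and *Sprr1a* overlap between the groups, *Gal* runs from 1.49 to 18677 CPM in P2rx3-positive and 2.57 to 18957 CPM in P2rx3-negative cells, and *Ecel1* is above 10 CPM in 17 of 17 and 6 of 13 cells.

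Injury transcription factors leaned to the P2rx3-positive side, with 11 of 25 at least 2-fold higher and 1 lower (median 0.75), beside 6.18% and 8.72% of all genes. The higher ones were *Atf5*, *Ddit3*, *Stat5a*, *Fosl2*, *Stat5b*, *Atf4*, *Sox11*, *Cebpg*, *Nfil3*, *Mafk* and *Myc*. *Stat5b*, a cytokine-signalling factor, averaged 131 ± 83.5 CPM against 41.9 ± 29.5 CPM (1.63), and *Stat5a*, which shares exon sequence with *Stat3* on the other strand, 86.2 ± 80.8 CPM against 19.96 ± 33.5 CPM (2.06). *Fos*, an early-response factor, was the lower one (-2.66), with medians of 1.70 and 7.59 CPM. In a list of 9 early-response genes, a measure of handling and activity, 0 were higher and 2 (*Fos*, *Nr4a1*) lower, beside the same shares of all genes.

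Several of these factors belong to 1 pathway. ATF4 is translated when cells sense amino acid shortage or other stress through phosphorylated eIF2, and it switches on genes for amino acid synthesis and transport, together with the factors CHOP (*Ddit3*) and ATF5. A list of 33 such genes was drawn up after *Asns*, *Psat1* and *Mthfd2* had been seen to separate the groups, so its counts are a description only. Of 26 compared, 17 were at least 2-fold higher and 0 lower, beside 6.18% and 8.72% of all genes. The median log2 ratio was 1.34, beside 0.064 over all genes. Summed over the list, P2rx3-positive cells held 1909.8 to 5403 CPM (median 2691) and P2rx3-negative cells 976 to 1529 CPM (median 1295).

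*Atf4* itself was 124, 245 and 508 CPM at its lowest, median and highest in P2rx3-positive cells and 60.9, 84.4 and 140.5 CPM in P2rx3-negative cells (log2 ratio 1.57). *Ddit3*, whose exons overlap those of *Mars* on the other strand, was 45.2, 95.8 and 305 CPM at its lowest, median and highest in P2rx3-positive cells and 6.75, 21.9 and 58.3 CPM in P2rx3-negative cells (2.47). *Psat1*, phosphoserine aminotransferase of serine synthesis, was 121, 173 and 306 CPM at its lowest, median and highest in P2rx3-positive cells and 26.8, 61.2 and 99.9 CPM in P2rx3-negative cells, and *Mthfd2*, a mitochondrial folate enzyme, 73.0, 183 and 333 CPM at its lowest, median and highest in P2rx3-positive cells and 23.1, 43.1 and 68.0 CPM in P2rx3-negative cells. *Asns*, asparagine synthetase, was 587, 683 and 1304 CPM at its lowest, median and highest in P2rx3-positive cells and 189, 337 and 508 CPM in P2rx3-negative cells, with log2 ratios of 1.55, 2.04 and 1.12 for the 3 genes.

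*Chac1*, a glutathione-degrading enzyme, was 2.83, 139 and 576 CPM at its lowest, median and highest in P2rx3-positive cells and 1.93, 7.62 and 26.8 CPM in P2rx3-negative cells (3.85), and *Trib3*, a pseudokinase that binds ATF4, 6.59, 30.04 and 108 CPM at its lowest, median and highest in P2rx3-positive cells and 0, 2.03 and 13.7 CPM in P2rx3-negative cells (3.271). *Chac1* divided the P2rx3-positive cells, with 12 of 17 above 10 CPM, of which cell 13 was highest with 576 CPM. That cell also held the highest *Asns*, 1304 CPM, and had *Gal* at 1.49 CPM. The mitochondrial PEP carboxykinase gene *Pck2* averaged 54.1 ± 44.9 CPM against 11.95 ± 6.31 CPM (2.09), the serine enzyme gene *Shmt2* 72.2 ± 25.9 CPM against 20.3 ± 13.2 CPM (1.78), the translation inhibitor gene *Eif4ebp1* 55.6 ± 32.1 CPM against 16.6 ± 11.4 CPM (1.69) and the leucine transporter gene *Slc7a5* 32.98 ± 13.3 CPM against 11.5 ± 6.42 CPM (1.45). *Slc7a3*, a transporter of cationic amino acids, had the highest ratio of the list (4.97) and was 0, 5.88 and 402 CPM at its lowest, median and highest in P2rx3-positive cells and 0, 0 and 1.49 CPM in P2rx3-negative cells. *Slc7a11*, the cystine transporter, was not among the higher genes (-0.44), and neither was *Phgdh*, the first enzyme of serine synthesis (0.13).

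The genes of this list were also set beside uninjured cells that carry *P2rx3*. The same 17 axotomized cells stand on the other side, so this is a description and adds no separate support. The uninjured cells were of mixed kinds, since *Th* of C-fibre touch neurons was 4804 and 4165 CPM in control cells 4 and 7. In control cells 3 and 14, *P2rx3* was only 20.5 and 13.8 CPM. In 16 control-side P2rx3-positive cells of day 3 the means were 95.02 CPM for *Atf4*, 39.3 CPM for *Mthfd2*, 67.2 CPM for *Psat1*, 361 CPM for *Asns* and 12.4 CPM for *Chac1*. These lay near the P2rx3-negative axotomized means of 88.1, 43.7, 62.9, 341 and 9.07 CPM. *Ddit3* differed from them, with 68.0 CPM in the control-side cells, 23.1 CPM in P2rx3-negative and 133 CPM in P2rx3-positive axotomized cells. The summed list was 894 to 1764 CPM in those control cells and 1146 to 1861 CPM in the 10 SNT-side P2rx3-positive cells without *Atf3*, both under the lowest axotomized P2rx3-positive cell. Of the 26 genes of the list, 14 were at least 2-fold above the control-side P2rx3-positive mean, beside 842 of all 9511 genes. They included 13 of the 17 higher genes, which had been counted as high in the same axotomized cells. *Pck2* was not among the 14 (52.0 CPM in the control-side cells). Control-side cells at day 3 included only 2 P2rx3-negative cells, so an uninjured partner of the P2rx3-negative group is not compared here.

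Among 20 cytosolic aminoacyl-tRNA synthetases, 1 (*Lars*, 1.06) was at least 2-fold higher (5.0%), near the 6.18% of all genes. A ratio above 0 was held by 17 of the 20 (median 0.46), beside 5273 of all 9511 genes (median 0.064). Among 16 chaperones and regulators of the endoplasmic reticulum stress response, 0 were 2-fold apart (median 0.16), beside 14.9% of all genes. *Hspa5*, the chaperone BiP, averaged 493 ± 161 CPM against 308 ± 90.7 CPM (0.68), *Xbp1* 219 ± 46.8 CPM against 114 ± 36.8 CPM (0.93) and *Hsp90b1* 204 ± 71.4 CPM against 182 ± 38.6 CPM (0.17). Both lists were also drawn up after the values were seen.

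**Figure D5:**
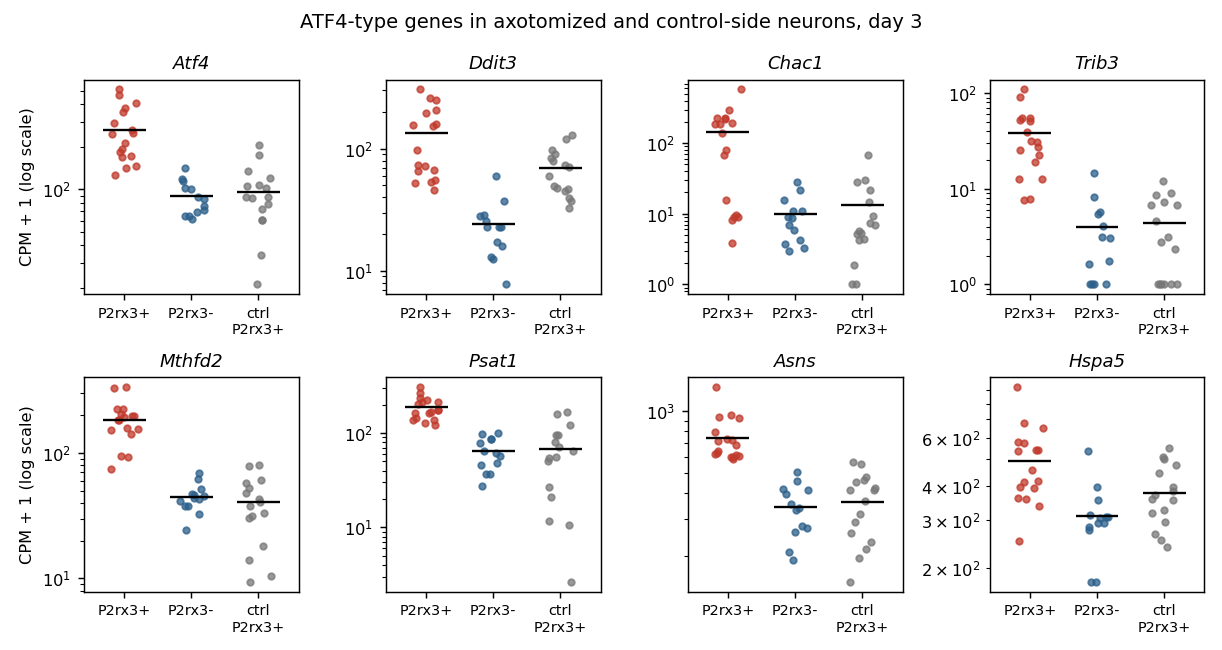
Each panel plots 1 gene as CPM + 1 on a log axis in axotomized P2rx3-positive (red, n = 17), axotomized P2rx3-negative (blue, n = 13) and control-side P2rx3-positive cells (grey, n = 16) of day 3, with a line at the mean. *Mthfd2*, *Psat1* and *Asns* do not overlap between the axotomized groups, *Chac1* splits the P2rx3-positive cells, and *Hspa5* overlaps in all 3 groups.

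Promoters of higher ATF4-type genes are shown because 17 of 26 listed genes were higher and 0 lower, beside 6.18% and 8.72% of all genes. The 250 bases before the RefSeq gene start (build GRCm38.p6) were searched on both strands for TGATGNAA, the letters of the C/EBP-ATF response element. Of the 17 higher genes, 13 had a promoter in the table and 3 of them (23.1%) held the letters, *Asns*, *Chac1* and *Pck2*, against 3.91% of the 27025 genes with a promoter. Over all 26 compared genes of the list, whether higher or not, 5 of 22 with a promoter (22.7%) held them, so the share was alike in the higher genes and in the whole list. Over the genes compared here that had a promoter, 2.5% held them, as did 3.456% of those at least 2-fold higher and 3.295% of those at least 2-fold lower. The 3 promoters with the letters lie at chr6:7693210-7693459 (minus strand), chr2:119350992-119351241 (plus strand) and chr14:55540016-55540265 (plus strand), each given 5′ to 3′ in the direction of its gene with the match, or its reverse complement, in capitals. The match starts 23, 193 and 103 bases before the gene start. A match is a description of letters and not a site of binding.
Asns: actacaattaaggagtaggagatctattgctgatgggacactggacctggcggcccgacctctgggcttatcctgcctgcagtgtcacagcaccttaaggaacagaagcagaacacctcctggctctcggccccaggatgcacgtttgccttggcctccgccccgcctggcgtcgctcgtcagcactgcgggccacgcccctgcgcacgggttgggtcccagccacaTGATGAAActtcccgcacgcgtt
Chac1: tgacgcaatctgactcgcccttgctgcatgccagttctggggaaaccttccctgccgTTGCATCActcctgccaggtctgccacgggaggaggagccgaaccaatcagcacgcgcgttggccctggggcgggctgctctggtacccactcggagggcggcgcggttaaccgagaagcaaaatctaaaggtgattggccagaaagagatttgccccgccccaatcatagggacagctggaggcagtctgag
Pck2: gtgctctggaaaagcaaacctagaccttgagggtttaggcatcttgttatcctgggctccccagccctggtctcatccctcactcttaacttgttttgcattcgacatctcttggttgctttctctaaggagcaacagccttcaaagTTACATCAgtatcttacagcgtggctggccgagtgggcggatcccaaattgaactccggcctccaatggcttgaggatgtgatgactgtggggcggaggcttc

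Cell death genes showed 6 of 36 at least 2-fold higher and 4 lower (median 0.18), beside 6.18% and 8.72% of all genes. The higher ones were *Chac1*, *Trib3* and *Ddit3*, which the ATF4 list also holds, with *Pdcd2*, *Tnfrsf12a* and *Bbc3*. *Pdcd2*, a programmed-cell-death protein that assists ribosome assembly, averaged 101 ± 98.9 CPM against 19.8 ± 7.797 CPM (2.30). The lower ones were *Dffa*, the inhibitor of the caspase-activated nuclease, with 112 ± 62.6 CPM against 339 ± 191 CPM (-1.59), *Oxr1*, an oxidation resistance gene (-1.34), *Tnfrsf1a*, a tumour necrosis factor receptor (-1.31), and *Aifm1* (-1.09).

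Of 66 compared genes of oxidative phosphorylation, 5 (7.58%) were at least 2-fold lower and 0 higher, near the 8.72% lower among all genes. The log2 ratio was under 0 for 64 of the 66, beside 4238 of all 9511 genes. The median log2 ratio was -0.58, beside 0.064 over all genes. Summed over the 67 listed, P2rx3-positive cells held 10087 to 14604 CPM and P2rx3-negative cells 15003 to 25079 CPM, without overlap. The lowest were *Ndufa1* (-1.15), *Atp5e* (-1.12) and *Cox7b* (-1.11), and the highest *Ndufv1* (0.14), *Sdhb* (0.012) and *Ndufc2* (-0.059). *Cox7b*, a subunit of cytochrome c oxidase, was 84.8, 129 and 167 CPM at its lowest, median and highest in P2rx3-positive cells and 166, 267 and 448 CPM in P2rx3-negative cells. Among 31 neurofilament and cytoskeleton genes, 5 were at least 2-fold higher and 5 lower, beside 6.18% and 8.72% of all genes. *Stmn1*, a microtubule destabiliser, averaged 2001 ± 536 CPM against 779.7 ± 752 CPM (1.36), *Ina* 123 ± 123 CPM against 35.6 ± 69.4 CPM (1.76), and the alpha-tubulin gene *Tuba4a* 98.9 ± 121 CPM against 496 ± 138 CPM (-2.31). Among 14 pan-neuronal genes, *Avil*, an actin-binding protein of sensory neurons (1.64), and *Rbfox3*, NeuN (1.501), were higher and *Snap25* (-1.88) and *Isl1* (-1.06) lower, with a median of 0.02.

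Markers of other cells differed with the split. Of 14 compared glial markers, 11 were at least 2-fold lower in P2rx3-positive cells and 0 higher (median -1.29). Over all genes the shares were 8.72% lower and 6.18% higher. Summed over the 16 listed, they were 89.4 to 6976 CPM (median 1077) in P2rx3-positive cells and 1599.7 to 11811 CPM (median 8907) in P2rx3-negative cells. None of the 16 was at 0 in all members. *Apoe*, made by satellite glia and by stressed neurons, averaged 1503 ± 1638 CPM against 5156 ± 2212 CPM and *S100b* 89.4 ± 159.9 CPM against 595 ± 358 CPM. In the 8 P2rx3-positive and 4 P2rx3-negative cells whose glial sums lay in the shared range, 831 genes were at least 2-fold higher and 723 lower. There the median log2 ratio was 1.58 for the ATF4 list, -1.63 for LM markers and -0.43 for oxidative phosphorylation, beside 0.31 for the glial list. The sodium channel median was -0.51 there, against -1.17 over all members, and 99 of the 829 lower genes had a ratio above 0. The 4 P2rx3-negative cells were 4, 12, 36 and 39, of which cell 12 lacked *Ntrk3*. The part of glial RNA in single gene ratios was not tested.

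The 5 compared immune markers had 4 genes at least 2-fold higher and 0 lower, beside 6.18% and 8.72% of all genes. A single cell held these 4 genes. Cell 46 had 1710.1 CPM of *S100a8*, 1297 CPM of *S100a9*, 1029 CPM of *Retnlg* and 262 CPM of *Lyz2*, genes of neutrophils and myeloid cells. *S100a8* and *S100a9* were at 0 in all 13 P2rx3-negative cells, so summed counts were at least 687-fold and 511-fold higher against a floor of 3 counts over the group. Without cell 46 the immune median was 0.059, 564 genes were at least 2-fold higher and 816 lower. Immune sums were 7.04 to 4342 CPM in P2rx3-positive and 1.28 to 38.2 CPM in P2rx3-negative cells, and 0 of the 13 markers in the table were at 0 in all members. Of 3 compared vascular, fibroblast and erythrocyte markers, 2 (*Lum*, *Dcn*) were lower and 0 higher, beside 8.72% and 6.18% of all genes. Their sums were 12.5 to 206 and 36.3 to 327 CPM, and 2 of 19 were at 0 in all members.

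Day 7 offered the same split in cells that the rule had not used, with 1 P2rx3-positive and 11 P2rx3-negative axotomized cells. The P2rx3-positive cell held 461 CPM of *P2rx3* and 29.1 CPM of *Scn10a*, where the 11 others averaged 1.01 CPM of *Scn10a*. *Anxa1*, *Tgfbi* and *Tmem45b* were at 0 in it. Of the 829 genes lower at day 3, 66.7% were at least 2-fold lower and 3.136% higher in the day-7 cell, beside 24.05% and 8.16% of all 9511 genes. Of the 588 genes higher at day 3, 34.9% were higher and 19.6% lower. The day-7 P2rx3-positive cell also stood apart in markers of other cells. Its vascular, fibroblast and erythrocyte markers summed to 5060.1 CPM, against 20.5 to 361 CPM in the 11 others, with log2 ratios of 10.48 for *Hbb-b1* and 8.93 for *Hba-a1*, both haemoglobin genes. Of 14 glial markers, 12 were at least 2-fold lower in it and 0 higher (median -4.30), with a sum of 504 CPM against 680.4 to 10988 CPM. The part of these markers in the day-7 ratios was not tested. A single cell gives no spread, and read length and mouse strain differ from day 3.

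In the ATF4 list the day-7 P2rx3-positive cell had 10 of 26 genes at least 2-fold above the P2rx3-negative mean and 3 below. The median log2 ratio was 0.46, and the shares over all genes were 8.16% above and 24.05% below. Its summed list was 1634 CPM, and the 11 P2rx3-negative cells held 659 to 1602 CPM. *Atf4* was 218 against 91.4 CPM, *Chac1* 89.1 against 10.6 CPM and *Mthfd2* 102 against 36.98 CPM, while *Asns* was 287 against 232 CPM. In uninjured control-side cells of day 7, with 8 P2rx3-positive and 6 P2rx3-negative cells, 0 of the 26 genes were at least 2-fold higher and 2 lower (median -0.065). The shares over all genes in this split were 3.55% and 5.14%. In SNT-side cells of day 7 under the Atf3 cut, with 9 P2rx3-positive and 12 P2rx3-negative cells, 3 were higher and 0 lower (median 0.33). There the shares over all genes were 7.82% and 5.73%. Of 23 LM markers, 12 were at least 2-fold lower and 1 higher in the control-side cells, beside 5.14% and 3.55% of all genes. The P2rx3-positive cells of these 2 day-7 splits differed from the day-3 axotomized ones. Their summed LM markers had medians of 18047 CPM (control side) and 15428 CPM (SNT side), against 2391 CPM at day 3. Their *P2rx3* medians were 144 and 284 CPM, against 1931 CPM. Whether the day-7 splits part the same kinds of neuron was not tested. Of the genes higher and lower at day 3, 28.2% and 30.3% were at least 2-fold apart in the same direction in the control-side cells, beside 3.55% and 5.14% of all genes. In the SNT-side cells under the Atf3 cut these shares were 37.8% and 28.7%, beside 7.82% and 5.73% of all genes, and 10.7% of the genes lower at day 3 were at least 2-fold higher.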

How the data were processed

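The authors picked single neurons by hand and sequenced Smart-seq2 libraries without molecular identifiers, at day 3 with single reads of 50 bp. Per the labels and methods, reads were separated with CASAVA 1.8.2, aligned with Bowtie2 (genome build named: mm9) and quantified with RSEM on RefSeq exons, with ribosomal RNA removed. The authors named the deposited tables TPM, but their values are expected counts: 62.1% to 72.2% of the values above 0 in each member were whole (exactly equal to their rounded value) and totals differed between cells. The table without the 11 outlier cells was scaled to a sum of 1e6 per cell (CPM). 6 pooled-neuron columns were not used. Log2 ratios of mean CPM (pseudocount 1 CPM) were computed over all genes with Python 3.11.15, pandas 2.3.3 and scipy 1.17.1, and TMM factors with edgeR 4.0.16. The calculation was tested on simulated data. The labels name no animals, so no test between groups was made.

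The members and 23 gene lists were chosen with earlier results of these data known, and 3 lists were added after their genes' values were seen. Named genes were those of the rule, the 12 highest and 12 lowest ratios among genes above 10 CPM in at least 50% of the cells of the higher group, the 3 highest and 3 lowest of each list, genes named in the study, up to 10 genes without overlap, and markers of other cells. Other genes named with a value were chosen after their values were seen. Exon overlaps were read from GENCODE M21 and promoters from RefSeq. Alternatives covered the cuts, the summary over cells, scaling, depth, pseudocount and low values. Single results of some genes are not reported here.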

Additional observations from a re-analysis of the deposited data

How the results depend on the processing

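No paired analysis was possible because the replicate numbers only name single cells and no test between groups was made. 22 alternatives were run, 4 of them chosen after seeing the data. Counts of genes at least 2-fold higher and lower were 330 and 463 with a pseudocount of 10 CPM, 1015 and 1402 with a least mean of 1 CPM or no limit on low values, 255 and 328 with a least mean of 50 CPM, and 176 and 223 with a log2 limit of 2. The share of higher genes among those past the limit was 41.5%, 58.9% with a P2rx3 cut of 1 CPM and 53.5% in the shared glial range. Outlier cells added no member, since 0 of 7 such SNT cells of day 3 reached the Atf3 cut.

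With a P2rx3 cut of 1 CPM, which left 28 P2rx3-positive and 2 P2rx3-negative cells, log2 ratios turned to 2.21 for *Pvalb*, 2.63 for *Spp1*, -0.28 for *Fam19a4*, 2.95 for *Ankrd1*, 0.32 for *Fos*, 0.89 for *Igf1*, 0.0111 for *Tnfrsf1a*, 0.0596 for *Atp5e*, 2.02 for *Dcn*, 1.0015 for *Fabp7*, 0.27 for *Cdh19*, 0.14 for *Etv1* and 0.62 for the median of the vascular markers. With cuts of 50 and 100 CPM they turned to -0.79 for *Calca* and -3.57 for *Htr3a*, and to -0.80 for *Calca* and -3.42 for *Htr3a*. Medians over cells gave -0.12 for *Kit* and -0.71 for *Lyz2*, the mean of log2 values -0.0667 for *Kit*, and leaving out the highest cell of each group -0.25 for *Lyz2*. Without cell 46 the values were -0.0282 for *Retnlg* and -0.55 for *Lyz2*. Over P2rx3-positive cells above 500 CPM of *P2rx3* the ratio was -0.37 for *Htr3a*. In the shared glial range they were 0.62 for *Tnfrsf1a*, 0.17 for *Nr4a1*, 0.10 for *Ednrb*, 0.36 for *Dcn*, 0.0892 for *Mbp*, 0.22 for *Apoe*, 0.67 for *Sparc*, 0.45 for *Kcnj10*, 0.77 for *Cdh19*, 1.69 for *Calb1*, 0.31 for the median of the glial markers and 0.36 for the median of the vascular markers. The cells of the shared glial range were chosen by their glial sums, so the ratios of the glial markers there follow in part from that choice. Of 131 named genes at least 2-fold apart, 107 kept their direction under every alternative run for them. The cause of the other reversals was not tested. Sums of few cells and a single sample per side limit these values, and genes near 10 CPM rest on few counts.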
